A study of Rattus norvegicus with 6 samples.

Results

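Neurotrophic ligands and their receptors were followed in the retina of streptozotocin-diabetic and control rats. The set holds 9 genes picked by name. These are the ligand genes Bdnf and Cntf, the neurotrophin receptor genes Ntrk2, Ntrk3 and Ngfr, the CNTF receptor gene Cntfr, and the GDNF-family receptor genes Gfra1, Gfra2 and Ret. In the deposited table of 34170 genes, 8 of the 9 names had 1 row each, and Gfra1 was not analysed here. All 8 reached the minimum mean of 0.5 FPKM and so were among the 16363 genes tested. FPKM is a level scaled to gene length and to the depth of a library, counted in fragments, that is, sequenced read pairs.

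The 6 libraries were made from poly-A RNA of the retina of male rats of about 100 g from the outbred Sprague-Dawley stock. In the diabetic group, 3 rats had received intraperitoneal streptozotocin, which is toxic to beta cells of the pancreas and so lowers insulin, at 60 mg/kg after a fast of 12 h on 5 consecutive days. The 3 control rats, labelled WT, had received citrate buffer on 5 days. Fasting glucose was read 1 week after the last injection, and rats above 16.7 mmol/L were taken as diabetic. The rats of both groups are of the same stock, and the labels name no engineered allele. Neither age nor the time of retina collection is stated in the sources used here. The labels list a body weight for each rat, between 100.4 and 104 g in the diabetic and between 103.4 and 110.5 g in the control group, so each library stands for 1 animal.

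Neurotrophins are secreted proteins that bind Trk receptor tyrosine kinases and the p75 receptor, and they sustain neurons, their dendrites and their synapses. CNTF is a cytokine that acts through CNTF receptor alpha together with the shared chains LIFR and gp130, and the receptors of the GDNF family pair a GFR alpha subunit with the kinase RET. In the retina, BDNF and CNTF are best known for keeping ganglion cells and photoreceptors alive after injury, and Muller glia are a known source of CNTF.

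The 2 ligand genes are also the members whose control libraries differed most among themselves, and the regions around their start sites are shown as context for that description. Of the 8 members with a row, 3 had promoter entries in RefSeq (build GRCr8, 250 bases before to 50 after a start site), with 6 for Bdnf, 1 for Cntf and 1 for Ret. Each entry was searched on both strands for TGACG, the core that CREB-family factors bind, for the full palindrome TGACGTCA, which contains TGACG, and for TGACTCA, the AP-1 element. Capitals mark TGACG in the Bdnf sequence and TGACTCA in the Cntf sequence, read on either strand. The Bdnf stretch is chr3:116637608-116637907 on the plus strand and the Cntf stretch is chr1:219314486-219314785 on the minus strand, and both are printed 5′ to 3′ along the gene. Positions of the members further on are those of the deposited table, whose genome build is not stated and which are not interchangeable with these.
Bdnf: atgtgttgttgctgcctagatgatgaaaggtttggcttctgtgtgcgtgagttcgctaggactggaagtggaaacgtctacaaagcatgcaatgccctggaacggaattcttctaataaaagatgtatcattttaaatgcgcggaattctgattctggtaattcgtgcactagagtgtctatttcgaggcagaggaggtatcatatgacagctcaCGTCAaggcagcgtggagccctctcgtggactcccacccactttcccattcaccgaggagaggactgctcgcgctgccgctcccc
Cntf: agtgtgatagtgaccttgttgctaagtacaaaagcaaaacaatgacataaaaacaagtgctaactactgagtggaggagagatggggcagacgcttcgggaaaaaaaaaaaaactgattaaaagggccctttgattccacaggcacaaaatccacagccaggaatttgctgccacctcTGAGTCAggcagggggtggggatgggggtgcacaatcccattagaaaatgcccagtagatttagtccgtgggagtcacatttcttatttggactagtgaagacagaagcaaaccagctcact
Of the 6 Bdnf entries, 1 held TGACG, 0 held TGACGTCA and 0 held TGACTCA, and the Cntf entry held 1 match to TGACTCA and 0 to TGACG. Of all 33469 promoter entries, 21.2% held TGACG, 1.83% held TGACGTCA and 4.63% held TGACTCA. A match only says that these letters stand in the window. Bdnf is transcribed from several start sites, and the deposited value is 1 number for the gene, so it cannot tell which of them was in use.

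Across the whole table, limma on log2(FPKM + 0.5) left 0 of 16363 genes past the threshold of 0.05 after Benjamini-Hochberg adjustment, which is 0%. Before adjustment, 3255 genes (19.9%) had a p below 0.05, with 1498 higher (9.15%) and 1757 lower (10.7%) in diabetic retina. The 3 diabetic and 3 control values did not overlap for 26.2% of genes. The count of genes passing was 2 with voom on rebuilt fragments, 1 without control 2, 4 without diabetic 1 and 1 without diabetic 2. Rebuilt fragments amounted to between 16277864 and 19115426 per diabetic library and between 12417686 and 16941864 per control library. Rod genes were the most abundant of the retinal markers. The 7 rod genes summed to 27519 to 31877 FPKM in diabetic retina, against 32798 to 36672 FPKM in control retina, and 6 of the 7 had a log2 difference below 0. Lens genes stood apart in control 3, where the 6 listed summed to 244.1 FPKM, against 7.38 to 29.2 FPKM in the other 5 libraries.

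Measured per length, the 8 members lay at low to middle levels. Cntfr was the most abundant, with a mean of 15.3 ± 1.68 FPKM (SD over the 6 libraries), higher than 64.1% of the genes tested. Cntf followed at 9.61 ± 3.35 FPKM, Ngfr at 8.16 ± 1.21, Gfra2 at 8.15 ± 0.94 and Ret at 7.66 ± 1.03 FPKM. The ranges of neighbours among these 5 genes overlapped, and Cntf was above Cntfr in 1 library, control 1. A gap came next. Ntrk2 had 2.31 ± 0.34 FPKM, and Ret was at least 2.94 times as high as Ntrk2 in every library. Ntrk3 had 1.90 ± 0.52 FPKM, below Ntrk2 in all 6 libraries, and Bdnf had the lowest mean at 1.26 ± 0.56 FPKM, higher than 13.2% of the genes tested. In control 2, Bdnf was above both Ntrk2 and Ntrk3, and in the other 5 libraries it was below both.

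**Figure D1:**
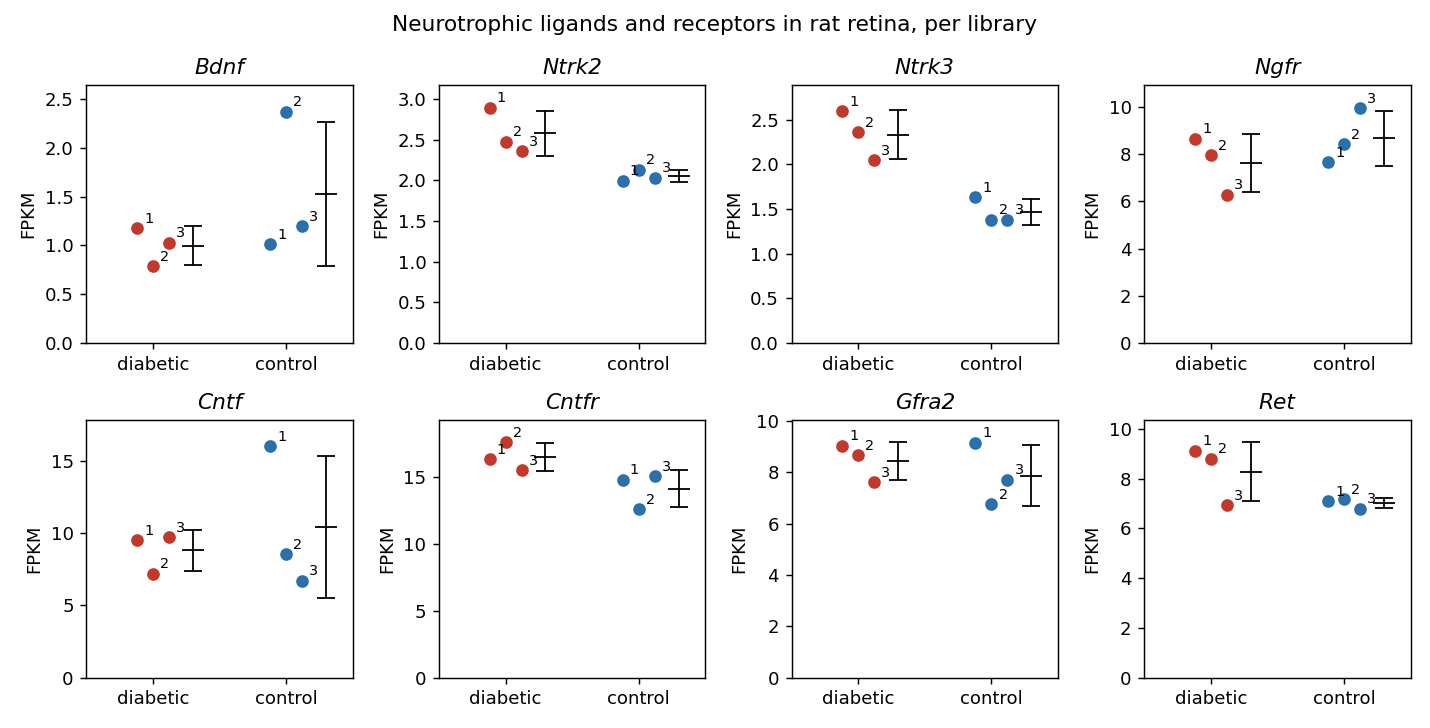
FPKM of the 8 members in each library, with diabetic libraries at the left and control libraries at the right of each panel, numbered as in the labels. The bar beside the points is the mean with its SD (n = 3). Every diabetic library lies above every control library for Ntrk2, Ntrk3 and Cntfr, and 1 control library lies far above the rest for Bdnf and for Cntf.

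Among the receptors of neurotrophins, both Trk kinase genes were higher in every diabetic library than in any control library, and neither passed the adjusted threshold. The p75 gene Ngfr had a lower mean in diabetic than in control retina. Ntrk3 encodes TrkC, the receptor of neurotrophin 3. Its entry ENSRNOG00000018674 spans chr1:139890560-140262503 on the minus strand. It measured 2.60, 2.36 and 2.04 FPKM in diabetic 1, 2 and 3, against 1.63, 1.38 and 1.38 FPKM in control 1, 2 and 3. The lowest diabetic library was above the highest control library. The means were 2.33 ± 0.28 FPKM in diabetic and 1.46 ± 0.15 FPKM in control retina (SD, n = 3 each). The log2 difference was 0.53 (standard error 0.16), or 1.44-fold of FPKM + 0.5, with a 95% interval from 1.10 to 1.88. The adjusted p was 0.170 and the unadjusted p was 0.0142 (limma), so Ntrk3 did not pass. With 0.1 added to FPKM in place of 0.5, the log2 difference was 0.64. Between 118 and 151 fragments stood behind the diabetic values and between 51 and 85 behind the control values. A gene with no symbol lies 1545 bp past the 3′ end of Ntrk3 on the same strand. It had 3.06 to 3.52 FPKM in diabetic retina, against 2.77 to 4.52 FPKM in control retina. These ranges overlap, and its log2 difference was -0.069. Amacrine genes, of neurons that can carry Trk receptors, had 7 of 9 log2 differences above 0 and summed to 423.4 to 517.5 FPKM in diabetic retina, against 418.3 to 529.3 FPKM in control retina, with no marker at 0. Rod sums were lower in every diabetic library, as given above. The part of these cell types in the Trk values was not tested, and in bulk tissue fewer cells of a type and less RNA per cell cannot be told apart.

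Ntrk2 encodes TrkB, the BDNF receptor, which neurons make as a kinase and glia largely as a truncated form without one. Its entry ENSRNOG00000018839 spans chr17:5933729-6244676 on the minus strand. A gene value cannot separate these forms. It measured 2.89, 2.48 and 2.36 FPKM in diabetic 1, 2 and 3, against 1.99, 2.13 and 2.03 FPKM in control 1, 2 and 3. The groups did not overlap, and the 3 control values lay within 1.07-fold of each other. The log2 difference was 0.27 with a 95% interval from -0.08 to 0.61 (adjusted p = 0.353, limma). Ntrk2 is the longest member, at 10685 nt in the table. The 105 other genes within 1.1-fold of that length had a median log2 difference of 0.21. With the length trend of each library removed, the log2 difference of Ntrk2 was 0.021. With TPM it was 0.42, where the median of all genes was 0.13.

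Ngfr encodes p75, a receptor of all neurotrophins and their precursors, which in the rat retina is known mainly from Muller glia. Its entry ENSRNOG00000005392 spans chr10:83389847-83408061 on the minus strand. It measured 8.67, 7.96 and 6.28 FPKM in diabetic 1, 2 and 3, against 7.66, 8.44 and 9.95 FPKM in control 1, 2 and 3. The groups overlapped, with the lowest value in diabetic 3 and the highest in control 3. The means were 7.64 ± 1.23 FPKM in diabetic and 8.68 ± 1.16 FPKM in control retina (log2 difference -0.18, 95% interval from -0.54 to 0.18, adjusted p = 0.550, limma). The difference was -0.05 without diabetic 3 and -0.08 without control 3. With TPM it was -0.05, where the median of all genes was 0.13. Of the 9 genes listed for Muller glia, 6 were above 0 in their log2 difference and 3 below. Their summed level was 967.5 to 1344 FPKM in diabetic retina, against 1195 to 1336 FPKM in control retina, and no marker was at 0. The 5 genes listed for pericytes and smooth muscle summed to 6.39 to 7.60 FPKM in diabetic retina, against 9.06 to 14.2 FPKM in control retina, highest in control 3. Of the 4 tested, 3 had a log2 difference below 0. Whether either cell type has a part in the Ngfr values was not tested.

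Within a library, the balance of the 3 receptor genes is given as a description chosen after the values were seen. The ratio of Ngfr to Ntrk2 was 3.00, 3.22 and 2.66 in diabetic 1, 2 and 3, against 3.84, 3.96 and 4.90 in control 1, 2 and 3. The ratio of Ntrk2 to Ntrk3 was 1.11, 1.05 and 1.15 in diabetic 1, 2 and 3, against 1.22, 1.54 and 1.47 in control 1, 2 and 3. Both ratios were lower in all 3 diabetic libraries than in any control library. Both contain Ntrk2, whose own groups did not overlap, and how often ratios of other genes separate the groups was not computed. A ratio within a library does not depend on its scaling, but the genes differ in length and share the same libraries, and no test was made.

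The neurotrophin gene itself had a lower mean in diabetic retina, and 1 control library set most of that difference. Its entry ENSRNOG00000047466 spans chr3:100768637-100819210 on the plus strand. Bdnf measured 1.18, 0.79 and 1.03 FPKM in diabetic 1, 2 and 3, against 1.02, 2.37 and 1.20 FPKM in control 1, 2 and 3. The groups overlapped, and control 2 was the highest of the 6 libraries. Its 174 fragments put it between 2.03 and 2.75 FPKM (95% exact Poisson interval, counting error only). The next highest, control 3, had an interval from 0.965 to 1.46 FPKM. The means were 0.998 ± 0.20 FPKM in diabetic and 1.53 ± 0.74 FPKM in control retina, with a log2 difference of -0.39 and a 95% interval from -1.06 to 0.28 (adjusted p = 0.486, limma). Without control 2 the log2 difference was -0.11. The 4 genes listed for cornea, iris and ciliary body summed to 9.80 FPKM in control 2 and to 1.68 and 2.49 FPKM in control 1 and 3. They summed to 12.1 FPKM in diabetic 1, where Bdnf was at 1.18 FPKM. Their part in the Bdnf value of control 2 was not tested. The 11 ganglion cell genes summed to 456.0 to 555.7 FPKM in diabetic retina, against 482.7 to 653.8 FPKM in control retina, and control 1 was the highest of them.

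Bdnf stood against the length trend that its receptor followed. The 585 other genes within 1.1-fold of its 6068 nt had a median log2 difference of 0.14, and 79.3% of them were above 0. With the length trend removed, the log2 difference of Bdnf was -0.53 (adjusted p = 0.400, limma). Without that removal, the 95% interval ran from 0.481-fold to 1.22-fold of FPKM + 0.5 and included both directions.

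**Figure D2:**
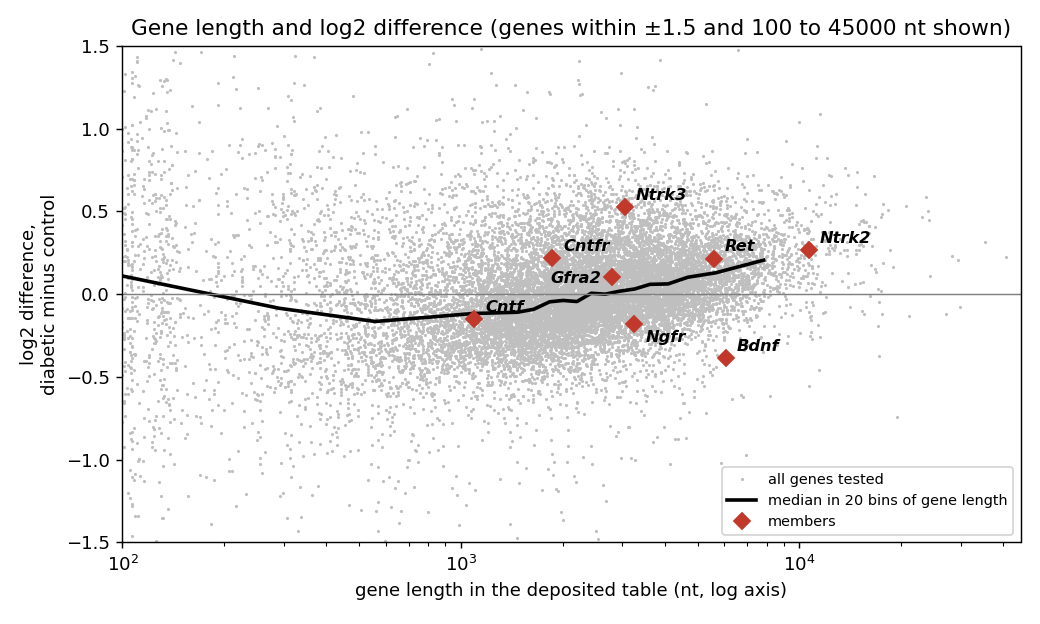
Log2 difference (diabetic minus control) against gene length in nt on a log axis, with grey points for the genes tested, a black line for the median in 20 bins of length, and red diamonds for the members. Ntrk2 lies near the line at the long end, Ntrk3 and Cntfr lie above it and Bdnf lies below it.

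In the CNTF system, neither the receptor gene nor the ligand gene passed the adjusted threshold. The receptor gene had groups that did not overlap, and the ligand gene split within the control group. Cntfr encodes the receptor subunit that binds CNTF. Its entry ENSRNOG00000047307 spans chr5:58041146-58078545 on the minus strand. It measured 16.3, 17.6 and 15.5 FPKM in diabetic 1, 2 and 3, against 14.8, 12.6 and 15.0 FPKM in control 1, 2 and 3. The groups did not overlap, although diabetic 3 and control 3 were close to each other. The means were 16.5 ± 1.05 FPKM in diabetic and 14.1 ± 1.36 FPKM in control retina. The fold was 1.16 with a 95% interval from 0.985 to 1.37 (adjusted p = 0.286, unadjusted p = 0.0687, limma). The log2 difference of 0.22 was 0.14 without control 2, and it was 0.26 once the length trend was removed. With TPM it was 0.36, where the median of all genes was 0.13.

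Cntf, the ligand gene, has the entry ENSRNOG00000012460 at chr1:229599009-229601032 on the minus strand. It measured 9.51, 7.18 and 9.72 FPKM in diabetic 1, 2 and 3, against 16.0, 8.54 and 6.70 FPKM in control 1, 2 and 3. The groups overlapped, and the control group held both the highest and the lowest value. The 298 fragments of control 1 gave an interval from 14.2 to 17.9 FPKM, above the intervals of the other 5 libraries, whose upper bounds were at most 11.2 FPKM. The log2 difference was -0.15 with a 95% interval from -0.85 to 0.55 (adjusted p = 0.813, limma), and without control 1 it was 0.19. The neighbour Zfp91 ends 1467 bp before Cntf on the same strand, at 47.1 to 51.4 FPKM in diabetic retina, against 43.6 to 47.9 FPKM in control retina, with its lowest value in control 1.

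The summed level of the astrocyte genes, made up mostly of Gfap and S100b, stood high in control 1, as Cntf did, and in diabetic 3. The 4 astrocyte genes summed to 47.1, 51.8 and 79.4 FPKM in diabetic 1, 2 and 3, against 77.4, 40.2 and 31.7 FPKM in control 1, 2 and 3. Of these, S100b was highest in control 1, at 45.5 FPKM, with 25.9 to 34.6 FPKM elsewhere, and Gfap was highest in diabetic 3, at 44.5 FPKM. Pax2, which defines retinal astrocytes, was at most 0.291 FPKM in any library and at 0 in control 1. Aldh1l1, also below the minimum for testing, had its lowest value in control 1, at 0.117 FPKM. Astrocyte genes had 1 of 2 tested members above 0 and 1 below, and their part in the Cntf values was not tested.

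The GDNF-family receptors showed small differences. The Ret entry ENSRNOG00000014751 spans chr4:150202058-150244372 on the minus strand. Ret, the kinase shared by the family, measured 9.12, 8.81 and 6.94 FPKM in diabetic 1, 2 and 3, against 7.10, 7.18 and 6.80 FPKM in control 1, 2 and 3. The control libraries lay within 1.06-fold of each other, 2 diabetic libraries were above them, and diabetic 3 was within the control range. The means were 8.29 ± 1.18 FPKM in diabetic and 7.03 ± 0.20 FPKM in control retina. The log2 difference was 0.21 with a 95% interval from -0.08 to 0.51 (adjusted p = 0.380, limma). It was 0.33 without diabetic 3, and removing the length trend left 0.084. With TPM it was 0.35, where the median of all genes was 0.13.

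Gfra2 encodes the alpha subunit that binds neurturin. Its entry ENSRNOG00000014010 spans chr15:52557607-52648972 on the plus strand. It measured 9.03, 8.67 and 7.62 FPKM in diabetic 1, 2 and 3, against 9.14, 6.75 and 7.71 FPKM in control 1, 2 and 3. The groups overlapped, and the log2 difference of 0.10 had a 95% interval from -0.21 to 0.42 (adjusted p = 0.712, limma). Without control 2 it was 0.0034, and with TPM it was 0.24, where the median of all genes was 0.13. The ratio of Gfra2 to Ret was between 0.984 and 1.10 in diabetic and between 0.941 and 1.29 in control libraries, so it overlapped as well.

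Across the 8 members, 5 log2 differences were above 0 and 3 below, where 50.1% of all genes tested were above 0. All 3 members that did not overlap between the groups were higher in diabetic retina, and 12.7% of all genes tested were so. For each of the 3, the exact Poisson intervals (counting error only) of the nearest libraries did overlap. For Ntrk3 they were 1.69 to 2.45 FPKM in diabetic 3 and 1.30 to 2.02 FPKM in control 1. For Ntrk2 they were 2.15 to 2.58 FPKM in diabetic 3 and 1.88 to 2.40 FPKM in control 2. For Cntfr they were 14.2 to 16.9 FPKM in diabetic 3 and 13.5 to 16.7 FPKM in control 3. At an unadjusted p below 0.05 there was 1 member, Ntrk3, in the higher direction, against 9.15% of all genes tested, and 0 in the lower direction, against 10.7%. The median within-group SD of log2 values was 0.17 over all genes tested. Bdnf and Cntf had 0.37 and 0.47, wider than 84.5% and 89.1% of the genes. Ntrk2 had 0.10, and 17.2% of the genes had no more.

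**Figure D3:**
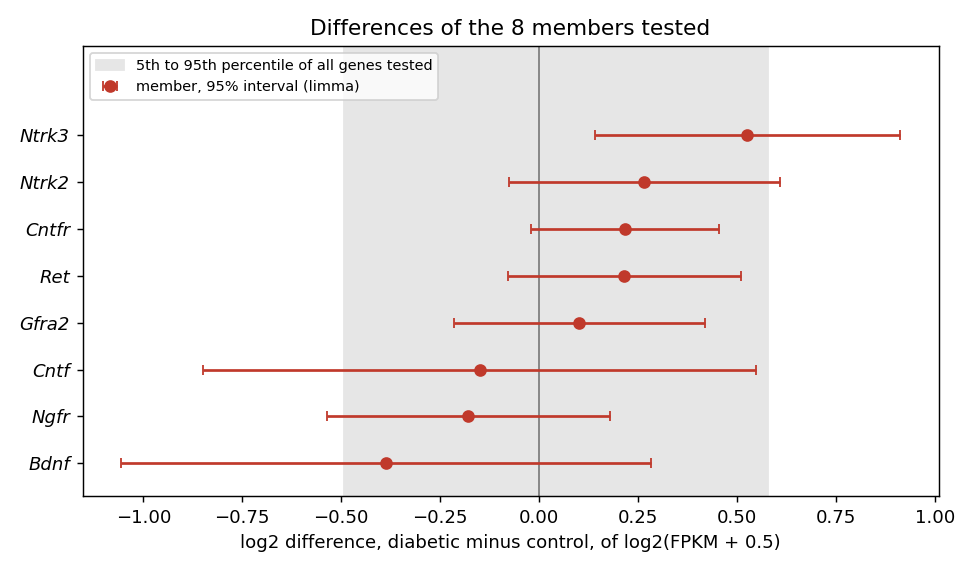
Log2 difference (diabetic minus control) of each member on the log2(FPKM + 0.5) scale, with its 95% interval from limma. The grey band runs from -0.49 to 0.58, the 5th to 95th percentile over all genes tested. The interval of Ntrk3 lies above 0 and the other 7 include 0.

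Other neurotrophin genes were at low levels. Ntf4, the neurotrophin 4 gene, was below the minimum and untested, with 1 fragment in each diabetic library, against 5, 3 and 1 fragments in control 1, 2 and 3. These counts are too few to compare the groups. For scale, 3 fragments on 1 kb of sequence amount to 0.158 to 0.248 FPKM, depending on the library. The neurotrophin 3 gene Ntf3, named after its values were seen, had 0.606 ± 0.04 FPKM in diabetic and 0.719 ± 0.28 FPKM in control retina, and its groups overlapped.

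Of the 16 listed neurotrophin, Trk, p75 and sortilin-family genes outside the members, 13 were tested, 7 above and 6 below 0, with 0 passing and a median log2 difference of 0.12, against 0.00 for all genes. Sorl1 was not analysed here. Sorcs1, a sorting receptor related to sortilin, had 5.66 ± 0.70 FPKM in diabetic and 3.34 ± 0.27 FPKM in control retina (log2 difference 0.68, adjusted p = 0.128, limma). Nradd, a p75-related protein with a death domain, had 0.741 ± 0.20 FPKM in diabetic and 1.70 ± 0.235 FPKM in control retina (log2 difference -0.83, adjusted p = 0.138, limma). Bex3, which binds the inside of p75, had a log2 difference of -0.42, and Kidins220, a scaffold under Trk receptors, had 0.24. These 4, named for the smallest unadjusted p of the list, kept the groups apart, and none passed. Of the 13 tested, 4 were higher and 2 lower with no overlap, against 12.7% and 13.6% of all genes tested. With the length trend removed, the median of these genes was -0.011.

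In the GDNF family, the ligand genes Gdnf and Artn and the receptor genes Gfra3 and Gfral were below the minimum, and 5 of 9 listed genes were tested. Gdnf rested on 4, 2 and 3 fragments in diabetic 1, 2 and 3, against 10, 3 and 3 fragments in control 1, 2 and 3, and was not compared. Above 0 were Ncam1, a cell adhesion molecule that also binds GDNF (log2 difference 0.55, adjusted p = 0.129), and Gdf15, the GFRAL ligand and a stress-induced hormone (0.50, adjusted p = 0.151, limma). The persephin gene Pspn had -0.35 and its receptor gene Gfra4 had -0.21, and their groups overlapped. The fifth, the neurturin gene Nrtn, named after its values were seen, had 10.2 ± 3.26 FPKM in diabetic and 10.9 ± 4.97 FPKM in control retina.

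The chains that transmit the CNTF signal come next. Of the 14 tested genes of the CNTF and gp130 list, 9 were above 0 and 5 below, the median log2 difference was 0.20, and 0 passed. Il6st, which encodes gp130, had 33.6, 31.5 and 40.1 FPKM in diabetic 1, 2 and 3, against 19.1, 23.2 and 28.4 FPKM in control 1, 2 and 3. The groups did not overlap, and control 3 was nearest to the diabetic range. The log2 difference was 0.58 (adjusted p = 0.145, limma). Its partner chain gene Lifr had 0.45, the kinase gene Jak1 had 0.23 and the transcription factor gene Stat3 had 0.56, each with groups apart and adjusted p between 0.179 and 0.249. Of the 14 genes, 5 had every diabetic library above every control library and 0 the reverse, against 12.7% and 13.6% of all genes tested. Other receptor genes of the list, named after their values were seen, were mixed. Il6r had groups apart, with a log2 difference of 0.43 (adjusted p = 0.293, limma). Osmr and Il11ra1 had overlapping groups, with log2 differences of -0.0033 and -0.20. The median of the list was 0.12 once the length trend was removed. With TPM, it was 0.34 and that of all genes was 0.13. The ligand gene Il6 was listed at 0 in all 6 libraries.

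**Figure D4:**
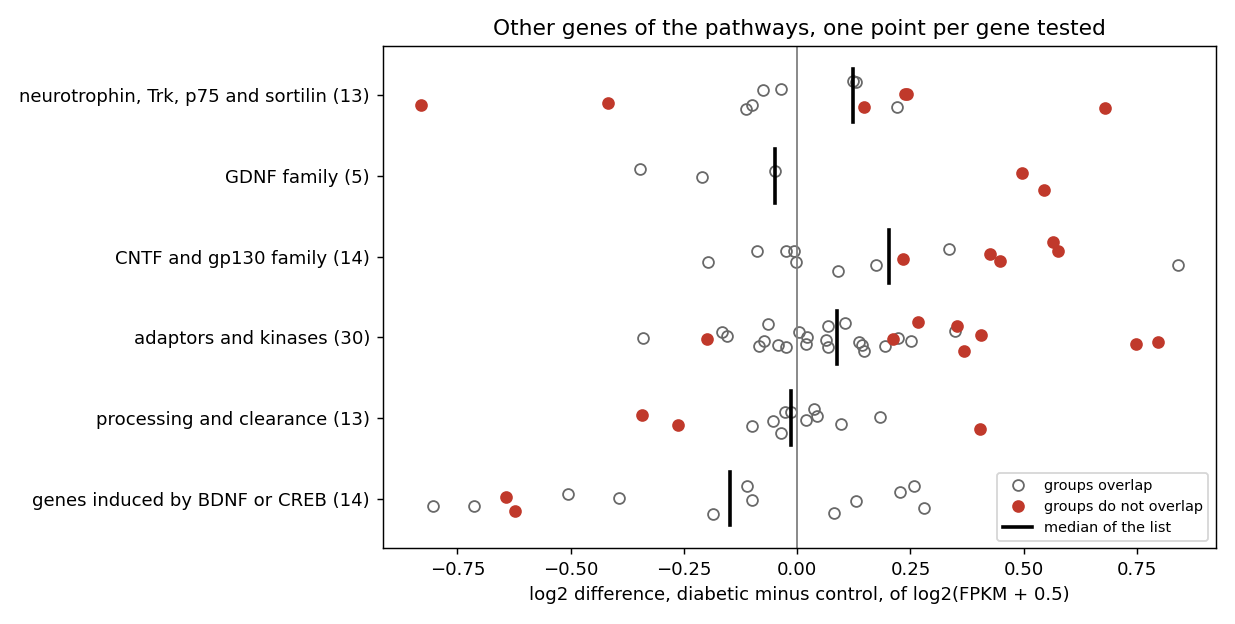
Log2 difference (diabetic minus control) of each tested gene in 6 lists around the members, with the number of genes tested after each name. Filled points are genes whose groups do not overlap, open points are genes whose groups do, and black lines are list medians, between -0.15 and 0.20.

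Adaptors and kinases downstream of the Trk and RET receptors were above 0 in 21 of 30 tested cases, with a median log2 difference of 0.087 and 0 passing. Braf, a kinase of the ERK cascade, had 0.41, the RET adaptor gene Dok6 had 0.75 and the Trk adaptor gene Frs2 had 0.27 (adjusted p between 0.154 and 0.170, limma). Their groups did not overlap, and they were named for small unadjusted p. Of the 30 tested, 7 were higher and 1 lower with no overlap, against 12.7% and 13.6% of all genes tested. Genes for processing and clearance had 6 of 13 above 0 and a median of -0.013. In that list Cpe, a carboxypeptidase that also sorts the BDNF precursor, had 479.8 ± 48.4 FPKM in diabetic and 575.2 ± 41.1 FPKM in control retina (log2 difference -0.26, adjusted p = 0.241, limma). Mmp2 had 0.40, Bace1 had 0.18 and the prohormone convertase gene Pcsk1 had -0.34.

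Genes that BDNF or CREB activity induces in neurons were below 0 in 9 of 14 tested cases, with a median of -0.15 and 0 passing. Rescaled to TPM, this list sat at -0.033, still below all genes tested, whose own median rose to 0.13 on that scale. Vgf, a secreted neuropeptide precursor, had 1.57, 2.04 and 2.15 FPKM in diabetic 1, 2 and 3, against 3.40, 3.32 and 3.05 FPKM in control 1, 2 and 3. Every diabetic library was below every control library (log2 difference -0.64, adjusted p = 0.137, limma). The nuclear receptor gene Nr4a1 had -0.62 with groups apart, and the transcription factor gene Egr1 and the somatostatin gene Sst had -0.80 and -0.71 with groups that overlapped. Of the 14 tested, 0 were higher and 2 lower with no overlap. Over all 6 lists, 89 genes were tested, of which 14 were higher and 7 lower at an unadjusted p below 0.05, and 19 were higher and 7 lower when counted by groups that do not overlap. The same counts over all genes were 9.15% and 10.7% by p, and 12.7% and 13.6% by no overlap.

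Genes whose pattern over the 6 libraries was most like a member were sought for the 3 members of highest mean, among 9805 other genes of at least 5 FPKM. Cntfr was most like Mirlet7c2, Slc41a1 and Pomk (Pearson correlation of log2 values 0.997, 0.993 and 0.993). Cntf was most like Snrpa, Mybph and S100b (0.998, 0.984 and 0.973), and Ngfr was most like Fasn, RGD1359634 and Slc35f6 (0.982, 0.980 and 0.980). These are descriptions over 6 libraries that share depth and scaling. Of the genes compared, 21, 11 and 10 reached 0.95 with Cntfr, Cntf and Ngfr. S100b is also in the astrocyte list used above.

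**Figure D5:**
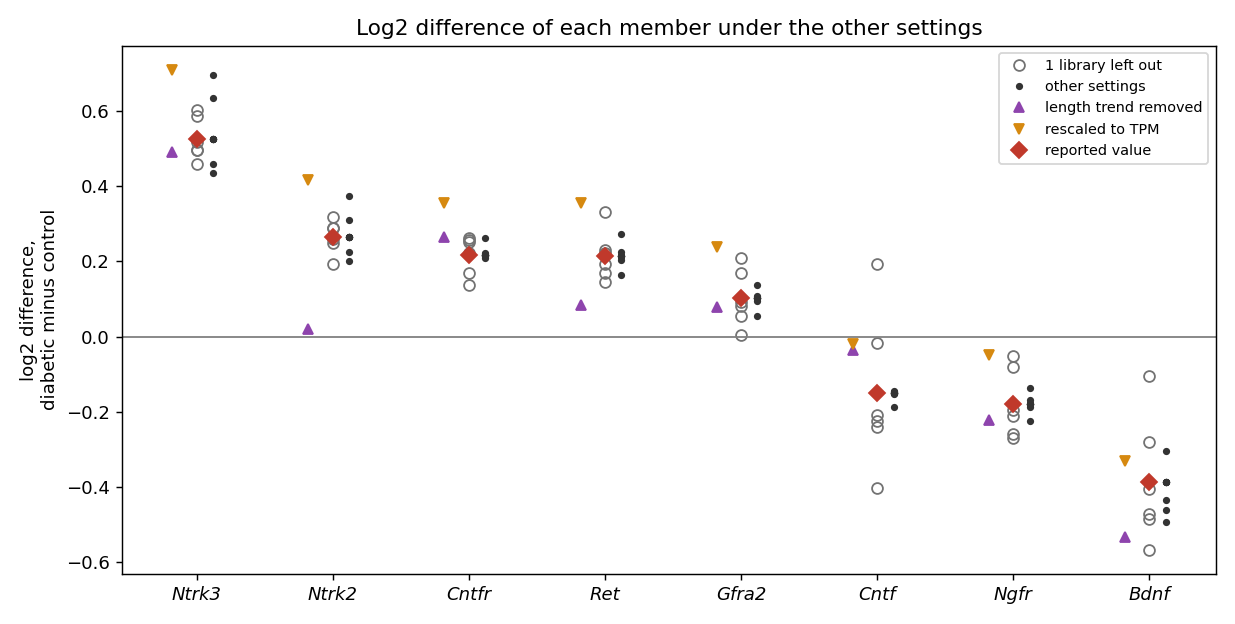
Log2 difference (diabetic minus control) of each member as reported (diamonds), with 1 library left out (open circles), after rescaling to TPM, after removal of the length trend, and under the other settings (dots). Ntrk3 stays between 0.43 and 0.71, Ntrk2 goes down to 0.021 with the length trend removed, and Cntf crosses 0 without control 1.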

How the data were processed

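Per the labels' protocols, the 6 retinal libraries hold poly-A RNA, were built with a NEBNext Ultra kit with no strand marking mentioned, and were read as pairs of 150 bp. HISAT2 2.0.5, an aligner, is named in the submitters' processing notes. No source used here names the counting tool, build or annotation. What the authors deposited is FPKM with gene length and coordinates, per the file headers. FPKM times length came out as whole fragments (within 0.05) for 100% of values above 0 in each library.

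A minimum mean of 0.5 FPKM was set for testing. The test was limma 3.58.1 (R 4.3.3) applied to log2(FPKM + 0.5) (group as the only term, eBayes with a trend, two-sided, Benjamini-Hochberg over all genes tested, threshold 0.05). This scale understates the change of low genes. The members and lists were chosen with earlier results of these data known. From each list the text names passing genes and, up to 4 in all, those of smallest unadjusted p; genes below the minimum or at 0 may be named as such, the 3 members of highest mean bring the 3 genes of most similar pattern, and other names were chosen after their values were seen. Pathway and cell type lists were summarised by counts, medians and summed FPKM. No other gene of the table overlaps a member. Alternatives were 2 other pseudocounts, 2 other filters, TPM, quantile normalization, removal of a length trend by lowess, voom on the rebuilt fragments, 2 other eBayes settings, a fit of protein-coding genes, a fit with replicate number as a block, and fits that left out 1 library. The test was run on simulated data first. Promoter sequences are from RefSeq. Figures were drawn with matplotlib 3.10.9. Every pair of libraries differed beyond sampling noise, the lowest chi-square being 10.7 per degree of freedom. Intervals on single values cover counting error only. Peaks of m6A, also part of the series' design, were not analysed here. Some genes of the lists enter the counts and medians and are not reported here by name.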

Additional observations from a re-analysis of the deposited data

How the results depend on the processing

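No member passed over all genes under any of the settings tried, and the lowest adjusted p was 0.112, for Ntrk3 with voom. Of the 8 members, 7 kept their sign in every setting, and the range for Ntrk3 was from 0.43 to 0.71. Bdnf and Ntrk3 have no value under the filter of 2 FPKM. Cntf turned to 0.19 without control 1, and the fits without 1 library spanned -0.40 to 0.19. Over all genes, 0 passing became 2 with voom (limma gave 0 and 3255 at an unadjusted p below 0.05), and the fits without 1 library gave 0 to 4. The 3255 became 2073 without diabetic 2, and the fits without 1 library spanned 2073 to 4010. The split of higher and lower genes at an unadjusted p below 0.05 was 3009 and 692 with TPM, 2213 and 1201 with voom, and 1543 and 1425 under quantile normalization. TPM moved the median of all genes to 0.13.

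With a replicate block 0 genes passed and 2790 were at an unadjusted p below 0.05. The numbers do not pair the animals by the labels, same-numbered libraries correlated at -0.054, -0.076 and 0.00061 in their deviations from group means, and no diabetic library correlated best with its own number. The block changed no call of a member.

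List medians moved by more than their spread between libraries as follows. The neurotrophin, Trk and p75 list, 0.12 as reported, was -0.037 with no filter, 0.26 with TPM and -0.011 with the length trend removed, and ranged from 0.052 to 0.12 without 1 library. The CNTF and gp130 list, 0.20 as reported, was 0.34 with the filter of 2 FPKM and 0.34 with TPM. With the length trend removed this list was at 0.12, below its range of 0.16 to 0.24 without 1 library. The adaptor and kinase list was 0.22 with TPM, 0.14 under quantile normalization and 0.15 with voom, and ranged from 0.043 to 0.11 without 1 library. The processing list was 0.12 with TPM and -0.076 with the length trend removed. The GDNF list ranged from -0.24 to 0.28 and the list induced by BDNF or CREB from -0.28 to -0.056 without 1 library. The TPM values of the lists stand beside a median of all genes of 0.13 with TPM, against 0.00 as reported. The cause of these movements was not tested. Depth limits Ntrk3, Bdnf and Cntf most among the members. Their values rest on 51 to 151, 81 to 174 and 94 to 298 fragments per library.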
